A study of Mus musculus with 6 samples.

Results

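The 9 genes examined here encode neurotrophic factors, their receptors and a membrane protein that acts on those receptors, namely *Bdnf*, *Ntf3*, *Gdnf*, *Ntrk2*, *Ntrk3*, *Ngfr*, *Gfra1*, *Gfra2* and *Islr2*. They were taken by symbol from a table of 27179 genes measured by bulk RNA-seq, and all 9 passed the filter on low counts, with at least 33 counts in every library. The cells were CD34hi and CD34lo fibroblasts (Lin–CD24–Pdgfrα+) that were sorted from the mammary glands of pubertal FVB/N mice at 6 weeks of age, for which the labels name no treatment, transgene or deletion. Each of 3 pools of 2 mice gave 1 library of each population, so that 3 CD34hi and 3 CD34lo libraries could be compared, and the mice within a pool cannot be told apart. The genes were chosen by the difference between CD34hi and CD34lo counts in these same libraries, so that their levels and fold changes are a description without a test.

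Neurotrophins are secreted proteins that keep sensory and sympathetic neurons alive and guide their axons. They act through Trk receptor tyrosine kinases and through p75, a member of the TNF receptor superfamily, whereas the GDNF family of ligands binds GPI-anchored GFRα co-receptors that engage the kinase Ret. Fibroblasts of skin and other innervated tissues are a known source of such factors for the nerve fibres that run through them. Islr2, also named Linx, is a transmembrane protein with leucine-rich repeats and an immunoglobulin domain that is known to associate with Trk receptors and Ret in developing neurons.

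Library totals ranged from 28764779 to 52402410 counts on genes, at which 3 counts corresponded to 0.0572 to 0.104 CPM before TMM factors. All other CPM values are counts scaled to 1000000 per library with TMM factors. *Cd34* ranged from 950 to 1007 RPKM (CPM per kilobase of gene length) in CD34hi and from 182 to 303 RPKM in CD34lo libraries, in the order of the sort. *Pdgfra* ranged from 94.6 to 137 RPKM in CD34hi and from 154 to 210 RPKM in CD34lo libraries, so that both populations carried the marker of the gate. Values below are CPM unless RPKM is named, libraries are listed in the order of mouse pools 1, 2 and 3, and log2 fold changes are CD34hi vs CD34lo. A negative log2 fold change therefore means a higher level in CD34lo fibroblasts. In sorted bulk samples, fewer cells that express a gene and less RNA per cell cannot be told apart.

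The neurotrophic genes divided between the populations. *Islr2* and the TrkC gene *Ntrk3* were higher in all 3 CD34hi libraries, the ligand genes *Bdnf* and *Ntf3* and the co-receptor genes *Gfra1* and *Gfra2* were higher in all 3 CD34lo libraries, and the libraries of the populations overlapped for *Gdnf*, *Ntrk2* and *Ngfr*. Thus the ranges did not overlap for 6 of the 9 genes, beside 50.1% of all 15219 genes tested (24.8% with CD34hi above and 25.3% with CD34lo above). The same 6 genes had an adjusted p-value under 0.05 in edgeR's quasi-likelihood test, 2 higher in CD34hi and 4 higher in CD34lo, beside 35.6% of all genes (16.9% and 18.7%). Since the genes were listed for this contrast, nothing is read from either count. Their median log2 fold change was -1.06, against -0.01 over all genes tested.

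**Figure D1:**
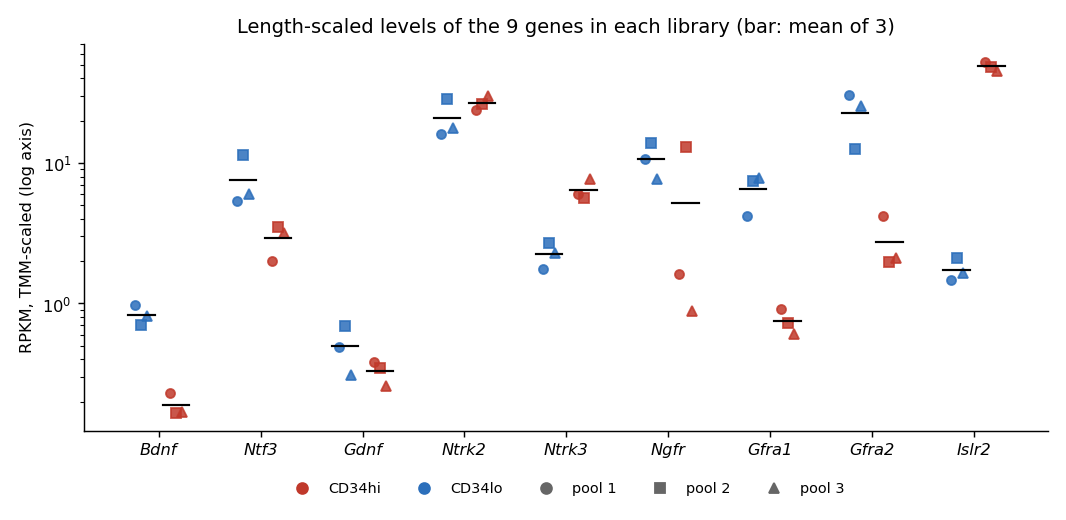
Levels of the 9 genes in RPKM (log axis) in each library, with red for CD34hi, blue for CD34lo, marker shapes for the 3 mouse pools and a bar at the mean of 3 libraries. *Islr2* lay between 45.1 and 52.7 RPKM in CD34hi and between 1.48 and 2.1 RPKM in CD34lo libraries, whereas *Gfra1* and *Gfra2* showed the opposite order, and 1 CD34hi library of *Ngfr* sat among the CD34lo libraries.

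Among the ligand genes, *Bdnf* (gene 12064, chr2:109674700-109727043, + strand), which encodes brain-derived neurotrophic factor, the ligand of TrkB, was detected at low levels. *Bdnf* had 1.27, 0.911 and 0.926 CPM in CD34hi and 5.33, 3.88 and 4.5 CPM in CD34lo libraries. All 3 CD34lo libraries lay above every CD34hi library, by 4.18-, 4.26- and 4.86-fold within the pools. The means were 1.04 ± 0.206 CPM (SD, n = 3) and 4.57 ± 0.726 CPM (SD, n = 3), with a log2 fold change of -2.14 ± 0.25 (SE). Behind these values were 33 to 57 counts in CD34hi and 108 to 289 counts in CD34lo libraries. An antisense transcript annotated on the opposite strand shares 896 exon bases with *Bdnf*, and the kit used does not mark strand, so that reads of both cannot be told apart.

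*Ntf3* (gene 18205, chr6:126101412-126166744, − strand) encodes neurotrophin-3, the ligand of TrkC. It had 3.11, 5.44 and 4.94 CPM in CD34hi and 8.28, 17.7 and 9.32 CPM in CD34lo libraries. The CD34lo libraries were again all above the CD34hi libraries, and the value of pool 2 was the highest in both populations. The means were 4.49 ± 1.23 CPM (SD, n = 3) in CD34hi and 11.8 ± 5.16 CPM (SD, n = 3) in CD34lo fibroblasts, a log2 fold change of -1.38 ± 0.33 (SE). Without CD34lo library 2 it was -0.97.

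*Gdnf* (gene 14573, chr15:7811011-7837575, + strand), which encodes the founding ligand of the GDNF family, was, per gene length, among the lowest of the 9 genes in both populations. Its level was 1.34, 1.21 and 0.904 CPM in CD34hi and 1.73, 2.41 and 1.09 CPM in CD34lo libraries. Although each pool had the higher value in CD34lo, by 1.29-, 1.98- and 1.21-fold, the ranges of the populations overlapped. The log2 fold change of *Gdnf* was -0.59 ± 0.35 (SE), and its adjusted p-value was not under 0.05.

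Of the Trk receptor genes, the populations overlapped for 1 and were apart for the other. *Ntrk2* (gene 18212, chr13:58806596-59129976, + strand) encodes TrkB, the receptor of brain-derived neurotrophic factor. Per gene length it was among the more abundant of the 9 genes. It had 236, 261 and 299 CPM in CD34hi and 160, 282 and 174 CPM in CD34lo libraries. CD34lo library 2 reached into the range of the CD34hi libraries, and the order in pool 2 was opposite to that of pools 1 and 3. The log2 ratios within the pools were 0.56, -0.11 and 0.78, and the fitted log2 fold change of *Ntrk2* was 0.37 ± 0.22 (SE), with an adjusted p-value that was not under 0.05.

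*Ntrk3* (gene 18213, chr7:78192114-78577838, − strand), which encodes TrkC, the receptor of neurotrophin-3, had 31.3, 29.2 and 39.7 CPM in CD34hi and 9.11, 13.9 and 11.8 CPM in CD34lo libraries. Here every CD34hi library lay above every CD34lo library, by 3.43-, 2.1- and 3.36-fold within the pools. The means were 33.4 ± 5.55 CPM (SD, n = 3) and 11.6 ± 2.41 CPM (SD, n = 3), and the log2 fold change was 1.53 ± 0.19 (SE). *Ntrk3* and its ligand gene *Ntf3* were thus higher in opposite populations. *Ntrk2* and *Ntrk3* also produce truncated receptors without the kinase, and counts per gene do not separate these from full-length transcripts.

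As shares of the summed RPKM of *Ntrk2* and *Ntrk3*, *Ntrk2* made up 80.7% ± 1.5 (SD, n = 3) in CD34hi and 90% ± 1.44 (SD, n = 3) in CD34lo fibroblasts. The share of *Ntrk3* was 19.3% ± 1.5 in CD34hi and 9.96% ± 1.44 in CD34lo fibroblasts. TrkB transcripts therefore exceeded TrkC transcripts in both populations.

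**Figure D2:**
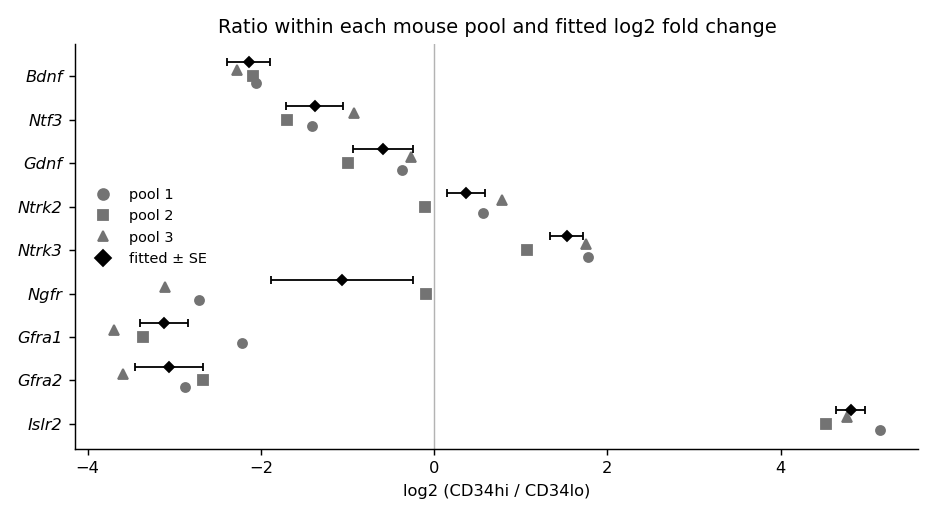
Log2 ratio of CD34hi to CD34lo CPM within each mouse pool (grey symbols) and the fitted log2 fold change with its standard error over 3 libraries per population (black diamonds). The 3 ratios of *Islr2* lay between 4.53 and 5.15 and those of *Bdnf* between -2.28 and -2.06, whereas those of *Ngfr* ran from -3.11 to -0.09.

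*Ngfr* (gene 18053, chr11:95568818-95587698, − strand) encodes p75, which binds all neurotrophins and their precursors. It had 5.5, 44.3 and 3.02 CPM in CD34hi and 36.3, 47.2 and 26 CPM in CD34lo libraries. CD34hi libraries 1 and 3 were below every CD34lo library, whereas CD34hi library 2 was among them. Within the pools *Ngfr* was higher in CD34lo by 6.61-, 1.06- and 8.61-fold. The log2 fold change was -1.06 ± 0.82 (SE), with an adjusted p-value that was not under 0.05. It was -3.09 without CD34hi library 2, -2.87 without pool 2 and -2.06 with limma-voom. When the pool entered the fit as a replicate block, it was -1.94 and passed the threshold, as did 40.5% of all genes in that fit.

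The departure of CD34hi library 2 was examined further, by a ranking that was chosen after the value of *Ngfr* had been seen. By the log2 excess of that library over the higher of the other CD34hi libraries, *Ngfr* ranked 2 of 14770 genes with a symbol, with an excess of 3.00. An excess of at least 1 was found for 74 genes in CD34hi library 2, compared with 72 in library 1 and 294 in library 3, so that library 3 held the most such genes. *Ptpn5*, which encodes a tyrosine phosphatase, ranked first, with 4.45, 68.9 and 2.49 CPM in CD34hi and 0.0738, 1.94 and 0.0964 CPM in CD34lo libraries. For *Ptpn5* the library of pool 2 was the highest in both populations. *Tgm2*, which encodes a transglutaminase, had 80.6, 415 and 58.7 CPM in CD34hi libraries, and the progesterone receptor gene *Pgr* had 33.2, 119 and 18.9 CPM. *Pgr* ranged from 0.59 to 1.32 CPM in CD34lo libraries, so that it was higher in CD34hi in every pool, in contrast to *Ngfr*.

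**Figure D3:**
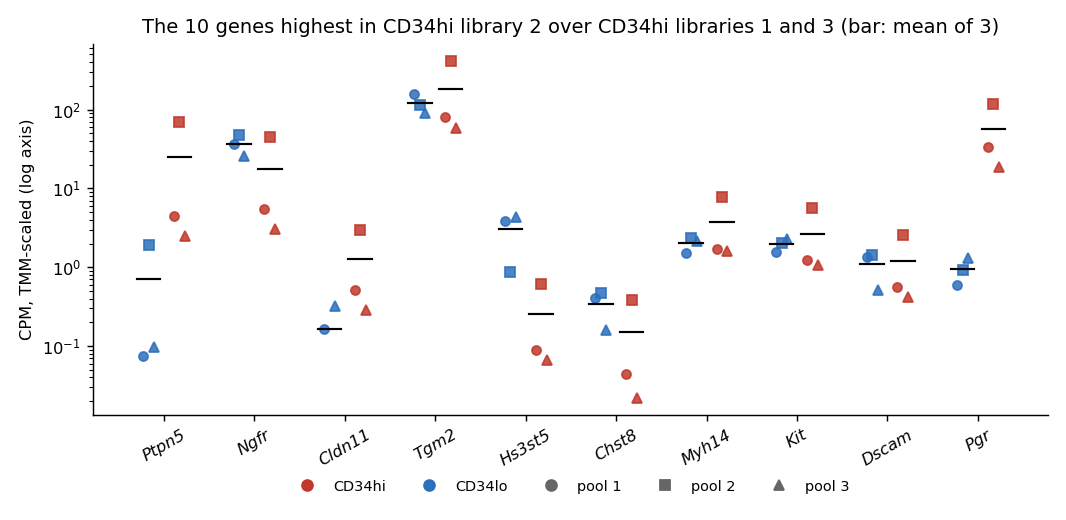
CPM (log axis) of the 10 genes with the largest excess of CD34hi library 2 over the other CD34hi libraries, with colours for the population, shapes for the mouse pool and a bar at the mean of 3 libraries. CD34hi library 2 (red square) lay above the other CD34hi libraries for each gene by construction, and only *Ngfr*, *Hs3st5* and *Chst8* had a higher mean in CD34lo. The CD34lo library of pool 2 had 0 CPM of *Cldn11* and is not drawn there.

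Markers of other cell types were summed in each library. Counts of markers with ranges apart stand beside 24.8% of all genes tested with CD34hi above and 25.3% with CD34lo above. The marker lists were chosen with earlier results known, so that nothing is read from these counts. The 9 Schwann cell markers summed to between 46.7 and 58.5 CPM in CD34hi, 51.7 CPM in CD34hi library 2, and to between 33.6 and 35.1 CPM in CD34lo libraries. *Mbp* carried the order of these sums, at 36.8 to 47 CPM in CD34hi and 8.12 to 14.8 CPM in CD34lo libraries. The directions of the 9 markers differed, since 2 of 9 had all CD34hi libraries above and 4 of 9 had all CD34lo libraries above. Among those 4 was *S100b*, at 5.66 to 5.8 CPM in CD34hi and 12.4 to 12.9 CPM in CD34lo libraries. Of the transcription factor genes on this list, *Foxd3* had at most 3 counts in any library. *Sox10* was detected in every library, with 6 to 28 counts (0.0795 to 0.296 RPKM) and overlapping ranges. The 6 neuron markers summed to between 0.354 and 2.03 CPM over all libraries, with *Snap25*, *Syt1* and *Elavl4* at most at 3 counts. The 4 endothelial markers summed to between 6.75 and 17.2 CPM in CD34hi and between 23 and 32.7 CPM in CD34lo libraries, and the highest of the CD34hi libraries was library 2. Of these, 3 had all CD34lo libraries above. The 7 pericyte markers summed to between 137 and 193 CPM in CD34hi, where library 2 had the lowest sum, and to between 157 and 241 CPM in CD34lo libraries. This sum was carried by *Abcc9*, at 63.5 to 151 CPM, and 5 of the 7 had all CD34lo libraries above, among them *Notch3* (2.98 to 6.06 CPM in CD34hi and 29.6 to 56.1 CPM in CD34lo libraries), while 1 had all CD34hi libraries above.

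The 6 perineurial markers summed to between 165 and 195 CPM in CD34hi and between 130 and 140 CPM in CD34lo libraries. *Tjp1* was the largest part, at 94.5 to 103 CPM in CD34hi and 65.4 to 84 CPM in CD34lo libraries. It was 1 of 2 markers with all CD34hi libraries above. The 1 marker with all CD34lo libraries above was *Cldn1*, at 1.74 to 2.86 CPM in CD34hi and 5.5 to 13.8 CPM in CD34lo libraries. Sums were 32.9 to 39.7 CPM in CD34hi and 28.3 to 39.1 CPM in CD34lo libraries for 6 epithelial markers, and 14.6 to 20.1 CPM and 3.85 to 7.44 CPM for 4 keratinocyte markers, of which *Krt1* had at most 3 counts and 2 had all CD34hi libraries above. The 4 leukocyte markers summed to between 16.9 and 19.4 CPM and between 6.49 and 11 CPM. *Cd3e* carried this sum (13.9 to 16 CPM in CD34hi and 1.67 to 5.43 CPM in CD34lo libraries), whereas *Cd68* and *Cd79a* had all CD34lo libraries above. The ranges of *Ptprc* overlapped, at 0.0221 to 0.359 CPM in CD34hi and 0.193 to 0.36 CPM in CD34lo libraries. The 3 adipocyte markers summed to between 0.179 and 0.635 CPM and between 0.482 and 1.81 CPM, with all CD34lo libraries above for 1 of them. By comparison, 6 fibroblast markers summed to between 28076 and 35339 CPM in CD34hi and between 48617 and 53759 CPM in CD34lo libraries. The part of other cell types in the differences of the neurotrophic genes was not tested.

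The GFRα co-receptor genes were both higher in CD34lo fibroblasts. *Gfra1* (gene 14585, chr19:58236692-58454466, − strand) encodes the preferred co-receptor of GDNF. It had 2.93, 2.35 and 1.94 CPM in CD34hi and 13.6, 24.1 and 25.3 CPM in CD34lo libraries. The populations were separated in each pool, by 4.65-, 10.3- and 13-fold. The means were 2.41 ± 0.497 CPM (SD, n = 3) and 21 ± 6.42 CPM (SD, n = 3), with a log2 fold change of -3.12 ± 0.28 (SE).

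*Gfra2* (gene 14586, chr14:70890130-70979838, + strand) encodes the preferred co-receptor of neurturin. It had 14.4, 6.79 and 7.32 CPM in CD34hi and 106, 43.2 and 88 CPM in CD34lo libraries. The lowest CD34lo library, that of pool 2, still lay above all CD34hi libraries. The means were 9.51 ± 4.26 CPM (SD, n = 3) and 79.2 ± 32.5 CPM (SD, n = 3), and the log2 fold change was -3.06 ± 0.39 (SE).

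The RPKM of the 5 GFRα co-receptor genes together summed to 5.64 ± 1.53 (SD, n = 3) in CD34hi and 32.7 ± 7.74 (SD, n = 3) in CD34lo fibroblasts. *Gfra2* made up 47.4% ± 8.6 of this sum in CD34hi and 67.8% ± 14.2 in CD34lo fibroblasts, with overlapping ranges. The share of *Gfra1* was 13.4% ± 1.13 in CD34hi and 21.4% ± 10.2 in CD34lo fibroblasts, also with overlap. The share of *Gfra4* ran the other way, with 39.1% ± 7.65 in CD34hi and 10.8% ± 5.03 in CD34lo fibroblasts and no overlap. The level of *Gfra4* itself was not higher in CD34hi, with 2.29, 2.31 and 1.82 RPKM there and 3.48, 3.92 and 2.42 RPKM in CD34lo libraries. The summed co-receptor RPKM of every CD34lo library lay above that of every CD34hi library. The RPKM of the ligand genes *Gdnf*, *Nrtn*, *Artn* and *Pspn* summed to 1.29 ± 0.125 in CD34hi and 1.45 ± 0.338 in CD34lo fibroblasts, with overlapping ranges. *Pspn* made up 33.5% ± 7.72 of this sum in CD34hi and 9.44% ± 9.59 in CD34lo fibroblasts. That share rests on at most 12 counts per library, and *Pspn* was removed by the filter on low counts.

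*Islr2* (gene 320563, chr9:58196297-58204319, − strand) showed the widest separation of the 9 genes. It had 263, 241 and 225 CPM in CD34hi and 7.41, 10.5 and 8.26 CPM in CD34lo libraries. Every CD34hi library was far above every CD34lo library, by 35.5-, 23.1- and 27.3-fold within the pools. The means were 243 ± 19 CPM (SD, n = 3) and 8.71 ± 1.57 CPM (SD, n = 3), and the log2 fold change was 4.81 ± 0.17 (SE), which ranked 81 of the 15219 genes tested towards CD34hi. The gene was still detected in CD34lo fibroblasts, with 257 to 402 counts per library.

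The neighbours of *Islr2* on chromosome 9 did not all follow it. Of 7 genes within 100 kb, 6 were tested. *Islr*, which encodes the related protein Meflin and lies 37.1 kb away on the same strand, had 901, 869 and 1047 CPM in CD34hi and 279, 313 and 332 CPM in CD34lo libraries. Its log2 fold change was 1.61 ± 0.14 (SE; adjusted p = 5.09e-05 by edgeR, Benjamini-Hochberg over all genes). *Stra6*, which encodes a receptor of retinol-binding protein and lies 42.3 kb away, had the opposite order, with 2.01, 0.414 and 1.15 CPM in CD34hi and 135, 33.2 and 113 CPM in CD34lo libraries. The log2 fold change of *Stra6* was -6.27 ± 0.66 (SE; adjusted p = 0.000139 by edgeR). Thus genes with large differences of opposite sign stood within 100 kb of each other. On the far side of the *Islr2* start, *Pml* and *Loxl1* were also higher in CD34hi (log2 fold changes of 0.92 and 1.08, adjusted p = 0.00894 and 0.00031 by edgeR), whereas *Stoml1* had a log2 fold change of -0.01 (adjusted p = 0.95 by edgeR).

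**Figure D4:**
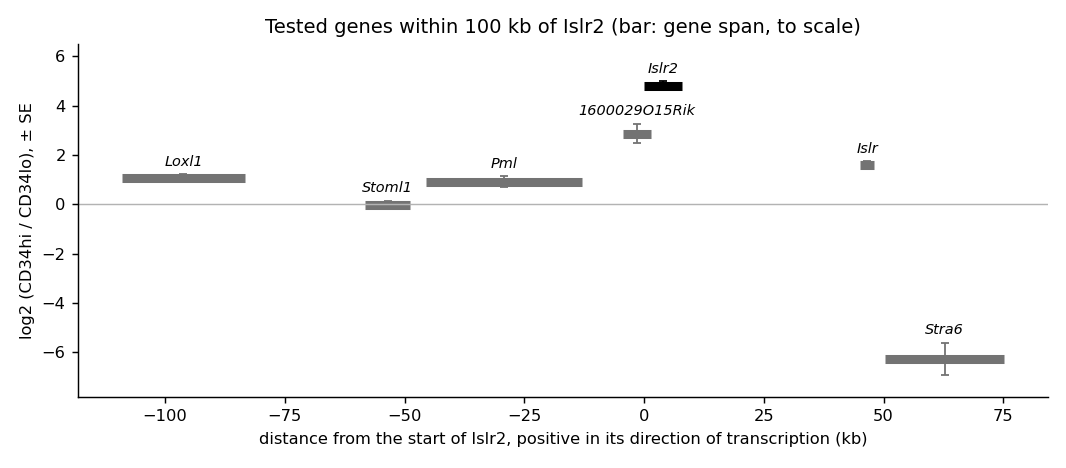
Log2 fold change (CD34hi vs CD34lo) with its standard error for the genes tested within 100 kb of *Islr2*, drawn as bars over their spans against the distance in kb from the start of *Islr2*. *Islr2* (black) and *Islr* had positive log2 fold changes of 4.81 and 1.61, and *Stra6* had a negative log2 fold change of -6.27.

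The antisense gene *1600029O15Rik* overlaps the start of *Islr2* and shares 55 exon bases with it. It had 634 counts over the 6 libraries, compared with 31663 for *Islr2*, and a log2 fold change of 2.87 ± 0.40 (SE; adjusted p = 0.000707 by edgeR). As the libraries were unstranded, reads of the shared bases cannot be assigned to a strand. *Islr* also shares 181 exon bases with an annotated transcript of *Islr2* on the same strand.

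Promoter windows of 250 bases before a RefSeq start (GRCm38.p6) were found for 7 of the 9 genes. *Islr2* had 3 windows, of which 1 held a GC box, and *Ntf3* had 2, both with a GC box. A window with this motif is shown for each, because these genes lay on opposite sides of the comparison, and it was picked after the motif search. Each is printed 5′ to 3′ on the − strand, with the GC box in capitals.
Islr2, chr9:58204320-58204569: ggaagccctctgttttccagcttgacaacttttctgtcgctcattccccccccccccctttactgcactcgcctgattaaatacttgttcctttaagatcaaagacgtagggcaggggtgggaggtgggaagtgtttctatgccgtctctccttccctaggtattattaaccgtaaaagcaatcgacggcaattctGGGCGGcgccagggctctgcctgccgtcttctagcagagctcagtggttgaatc
Ntf3, chr6:126164961-126165210: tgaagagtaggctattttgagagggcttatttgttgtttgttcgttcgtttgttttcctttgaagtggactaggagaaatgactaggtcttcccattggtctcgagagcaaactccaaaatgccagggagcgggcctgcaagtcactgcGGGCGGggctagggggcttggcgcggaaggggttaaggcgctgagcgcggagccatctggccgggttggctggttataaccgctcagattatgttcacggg
The GC box (GGGCGG on either strand) is a binding motif of Sp factors and was present in 32.7% of 32851 windows of the same length, so that its presence is a description and sets neither gene apart. The printed window of *Islr2* had 52.4% GC and 10 CpG dinucleotides, and that of *Ntf3*, which lies at a start inside the gene, had 54% GC and 14 CpG dinucleotides. The printed window of *Islr2* lies within the span of the antisense gene but clear of annotated exons. No window of the 7 genes held the cAMP response element TGACGTCA (1.55% of all windows) or the GLI motif TGGGTGGTC (0.225%) on either strand. The E-box CACGTG (6.02% of all windows) was present in 1 window of *Ntf3*, and the TATA box TATAAA (12.4%) in 1 window of *Gdnf*. The window of *Ngfr* had the highest GC content, 70.4%, with 4 GC boxes.

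Per gene length, *Islr2* headed the order of the 9 genes in CD34hi fibroblasts, with 48.7 ± 3.8 RPKM (SD, n = 3), followed by *Ntrk2* with 26.8 ± 3.17 RPKM. *Ntrk3* (6.45 ± 1.07 RPKM), *Ngfr* (5.17 ± 6.79), *Ntf3* (2.9 ± 0.792) and *Gfra2* (2.75 ± 1.23) came next, and each of these overlapped with its neighbour in the order. *Gfra1* had 0.746 ± 0.154 RPKM, *Gdnf* 0.329 ± 0.0641 RPKM and *Bdnf* 0.189 ± 0.0375 RPKM, with ranges apart.

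In CD34lo fibroblasts *Gfra2* (22.9 ± 9.39 RPKM) and *Ntrk2* (20.8 ± 6.75 RPKM) headed the order with overlapping ranges. *Ngfr* (10.7 ± 3.11 RPKM), *Ntf3* (7.6 ± 3.33) and *Gfra1* (6.51 ± 1.99) followed, and neighbours among them overlapped. *Ntrk3* had 2.25 ± 0.466 RPKM and *Islr2* 1.75 ± 0.315 RPKM, again with overlap, and *Bdnf* (0.833 ± 0.132 RPKM) and *Gdnf* (0.497 ± 0.188 RPKM) were lowest. *Ntrk2* was thus second in both populations, whereas *Islr2* stood first in CD34hi and seventh in CD34lo fibroblasts.

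The wider pathway was described by 47 further genes, of which 40 were tested. Of these, 5 were higher in CD34hi, 18 were higher in CD34lo and 17 did not pass the test, with a median log2 fold change of -0.59. For comparison, 16.9% and 18.7% of all genes tested were called in these directions. The wider list was chosen with earlier results of these data known, so that nothing is read from its counts. The neurotrophin pathway contributed 3 higher in CD34hi, 10 higher in CD34lo and 7 that did not pass of 20 tested, with a median of -0.71. The GDNF family contributed 2 higher in CD34lo and 7 that did not pass of 9 tested, with a median of -0.44. The other neurotrophic genes contributed 2, 6 and 3 of 11 tested, with a median of -1.01. All p-values that follow are adjusted over all genes tested, from edgeR's quasi-likelihood test.

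**Figure D5:**
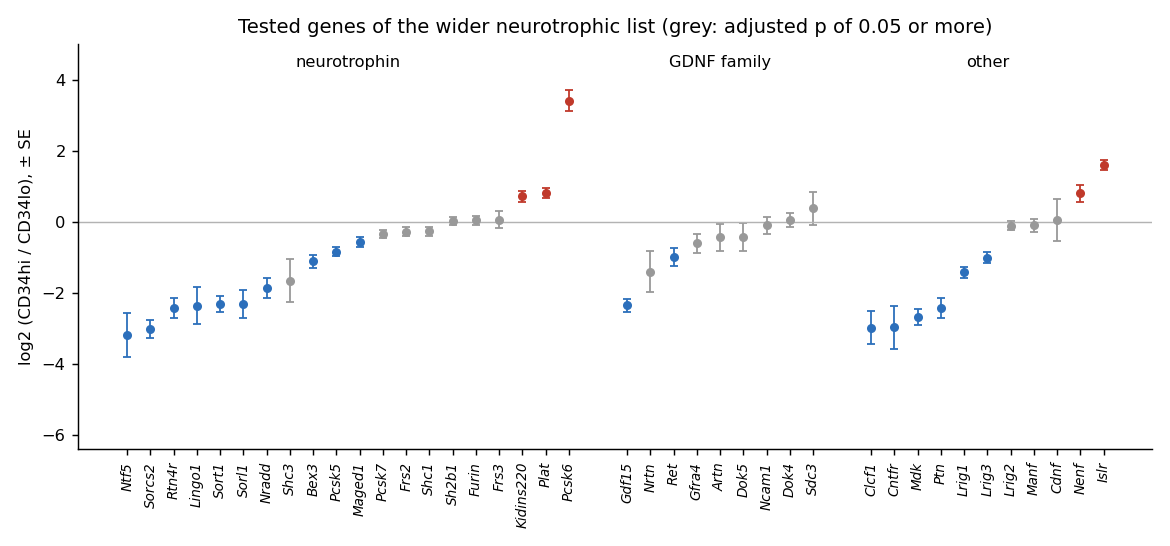
Log2 fold change (CD34hi vs CD34lo) with its standard error for the 40 tested genes of the wider list in 3 groups, with red for genes higher in CD34hi, blue for genes higher in CD34lo and grey for those with an adjusted p-value of 0.05 or more. In all, 18 genes were blue and 5 were red, with *Pcsk6* at 3.41 and *Ntf5* at -3.18.

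Among the ligand genes of the wider list, *Ntf5*, which encodes neurotrophin-4, was near the limit of detection, with 5, 2 and 1 counts in CD34hi and 44, 13 and 15 counts in CD34lo libraries. All 3 CD34lo libraries lay above the CD34hi libraries, in the same order as for *Bdnf* and *Ntf3*. The log2 fold change of *Ntf5* was -3.18 ± 0.61 (SE; adjusted p = 0.00389), and -3.86 without CD34hi library 1.

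All 5 tested genes for partners of p75 were called as higher in CD34lo fibroblasts, beside 18.7% of all genes tested. As the list was chosen with earlier results known, nothing is read from such counts. The 5 genes included *Nradd*, which encodes a p75 homologue (log2 fold change -1.86, adjusted p = 0.00136), and *Bex3*, which encodes a p75-associated cell death executor (-1.11, adjusted p = 0.00161). The Nogo receptor gene *Rtn4r* and its signalling partner *Lingo1* had log2 fold changes of -2.43 and -2.36 (adjusted p = 0.000209 and 0.00746). That of *Lingo1* was -1.60 without CD34lo library 1, which had 13 CPM beside 4.03 and 4.82 CPM in the other CD34lo libraries. The 3 tested genes of the Vps10p domain receptors, which bind proneurotrophins, were called in the same direction, namely *Sort1* at -2.32, *Sorcs2* at -3.02 and *Sorl1* at -2.31 (adjusted p = 9.52e-05, 4.44e-05 and 0.00228). *Sort1* had 7.8, 5.44 and 8.16 CPM in CD34hi and 30.5, 30 and 46.8 CPM in CD34lo libraries.

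The proteases that cleave proneurotrophins were divided. *Pcsk6*, which encodes the proprotein convertase PACE4, had 567, 547 and 465 CPM in CD34hi and 28.2, 63.2 and 57.8 CPM in CD34lo libraries. The log2 fold change of *Pcsk6* was 3.41 ± 0.29 (SE; adjusted p = 4.6e-05). *Plat*, the tissue plasminogen activator gene, was higher in CD34hi as well (0.81, adjusted p = 0.0017), whereas *Pcsk5* was higher in CD34lo (-0.84, adjusted p = 0.00109). *Furin* and *Pcsk7* had log2 fold changes of 0.04 and -0.35 and did not pass the test (adjusted p = 0.845 and 0.0511). Among 6 adaptors of Trk receptors only *Kidins220* passed (0.72, adjusted p = 0.00609), and with the replicate block *Shc3* passed as well, at -1.73.

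Of the GDNF family, *Ret*, which encodes the signalling kinase of the GFRα co-receptors, had 4.96, 6.54 and 3.57 CPM in CD34hi and 7.51, 11.1 and 11.2 CPM in CD34lo libraries. *Ret* was higher in all 3 CD34lo libraries, with a log2 fold change of -0.98 ± 0.25 (SE; adjusted p = 0.0161). Its call was lost without pool 3, where the adjusted p was 0.1, without CD34hi library 1 (0.0528) and without CD34lo library 3 (0.0581), and the adjusted p ranged from 0.0014 to 0.1 over 16 alternatives. *Gdf15*, which encodes a distant family member that signals through another co-receptor, was also higher in CD34lo (-2.35, adjusted p = 3.27e-05). The ligand genes *Nrtn* (-1.40, adjusted p = 0.0899) and *Artn* (-0.44, adjusted p = 0.424) and the co-receptor gene *Gfra4* (-0.61, adjusted p = 0.0961) did not pass the test. *Gfra4* passed without CD34lo library 3 (adjusted p = 0.0431, within a range of 0.0431 to 0.329 over the alternatives). *Pspn*, *Gfra3* and *Gfral* were removed by the filter on low counts. *Gfral* had 0 counts in every library, and *Gfra3* had 2 counts in CD34hi library 1 and 0 elsewhere.

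Other neurotrophic genes included the LRIG family, which like Islr2 combines leucine-rich repeats with immunoglobulin domains. *Lrig1* and *Lrig3* were higher in CD34lo (log2 fold changes of -1.42 and -1.01, adjusted p = 0.000185 and 0.000899), opposite to *Islr2* and *Islr*, and *Lrig2* did not pass (-0.11, adjusted p = 0.547). The heparin-binding factor genes *Mdk* and *Ptn* were higher in CD34lo, at -2.67 and -2.43 (adjusted p = 4.5e-05 and 0.000299). *Mdk* had 15.5, 11.7 and 8.62 CPM in CD34hi and 91.7, 66.4 and 68.6 CPM in CD34lo libraries.

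*Clcf1*, which encodes a cardiotrophin-like cytokine, and *Cntfr*, which encodes a receptor subunit of ciliary neurotrophic factor, were higher in CD34lo fibroblasts. *Clcf1* had 26, 8 and 9 counts in CD34hi and 181, 53 and 85 counts in CD34lo libraries. *Clcf1* and *Cntfr* had log2 fold changes of -2.98 and -2.97 (adjusted p = 0.00114 and 0.0055). These fitted values rest on few counts in CD34hi libraries, and that of *Clcf1* was -3.63 without CD34hi library 1. *Nenf*, which encodes neudesin, was higher in CD34hi (0.80, adjusted p = 0.0267).

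Profiles over the 6 libraries were compared by the root mean square difference of log2 CPM after centring each gene, which gives a likeness of pattern only, without a test. The closest to *Islr2* were *Mcf2l* (0.14), *Pi16* (0.15) and *Htr2a* (0.16), of which *Pi16* encodes a peptidase inhibitor. The closest to *Gfra1* were *P2ry14* (0.13), *Gm19461* (0.16) and *Tenm3* (0.18), and those closest to *Gfra2* were *Slc27a6* (0.12), *Shisa2* (0.13) and *Ubash3b* (0.20). *Bdnf* was followed most closely by *2610307P16Rik* (0.09), *Dusp5* (0.11) and *Chrnb1* (0.11), and *Ntf3* by *Susd2* (0.16), *Sned1* (0.16) and *Zfp184* (0.17).

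*Ntrk3* had close companions in *Slc25a23* (0.06), *Gdpd1* (0.07) and *Zfpm2* (0.08), and *Ntrk2* in *Gstm7*, *Crybg1* and *Arhgap10* (0.07 each). Those of *Gdnf* were *Slc29a2* (0.09), *Rhbdl1* (0.12) and *Adam1b* (0.12). For *Ngfr* the closest gene, *Chst8*, was at a distance of 0.51, followed by *Nfkbid* (0.56) and *Dio3* (0.58), so that no gene matched its profile as closely as for the other 8 genes. *Chst8* was near the limit of detection, with 0.0221 to 0.386 CPM in CD34hi and 0.161 to 0.468 CPM in CD34lo libraries.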

How the data were processed

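Bulk poly(A) RNA-seq libraries (TruSeq RNA v2, a kit that does not mark strand) came from CD34hi and CD34lo fibroblasts of the same 3 mouse pools. The authors used Rsubread 2.2.6 and the mouse genome GRCm38/mm10 to obtain reads per gene, and the deposited values are these raw counts. The annotation and strand setting used for counting are not given in the sources used here. Symbols were found for 25275 of 27179 gene identifiers. Gene positions and lengths are those of the deposited table.

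The test was edgeR 4.0.16 under R 4.3.3 (filterByExpr, which kept 15219 genes, TMM, glmQLFit and glmQLFTest), with Benjamini-Hochberg adjustment over all genes tested and a threshold of 0.05. This test replaced the voom analysis of the study, which was run as an alternative. The SE of a log2 fold change is its size over the root of F. CPM and RPKM used TMM-scaled library sizes, with TMM factors between 0.967 and 1.04. Profiles were compared on log2 CPM with a prior count of 2. The fit was also run on simulated counts with 200 changed genes and no pool effect. That setting differs from these data, so that the run does not measure the accuracy of the calls given here.

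Same-numbered libraries came from the same mouse pool per the labels. Their deviations from the population means correlated across 15219 genes (Pearson's r of 0.279, 0.0844 and 0.243 in pools 1, 2 and 3), so that the pool was a replicate block in an alternative fit. Other alternatives were limma-voom (limma 3.58.1), DESeq2 1.42.0, RLE and upper-quartile factors, no filter, at least 10 counts in every library, and each pool and library left out in turn.

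The 9 genes, the wider list and the marker lists were chosen with earlier results of these data known. Of the wider list, the ligand and receptor genes *Ntf5*, *Nrtn*, *Artn*, *Pspn*, *Ret*, *Gfra3* and *Gfra4* were named in any case, together with genes that passed the threshold with a log2 fold change of 1 or more in size, and for each of the 9 genes the 3 closest profiles. Genes near the 9 genes (within 100 kb), *Pcsk5*, *Pcsk7*, *Furin*, *Plat*, *Kidins220*, *Shc3*, *Lrig2*, *Nenf*, *Sdc3* and the genes ranked by CD34hi library 2 were named after their values were seen. Promoter windows came from a RefSeq table, without chromosome 18, and exon overlaps from GENCODE vM21. Results for some genes of the wider list are not reported here and are left out of its counts.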

Additional observations from a re-analysis of the deposited data

How the results depend on the processing

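The number of the 9 genes called was 6 and lay between 6 and 8 over 16 alternatives, and that of the wider list was 23 and lay between 21 and 26. With pools or libraries left out, these ranges were 6 to 8 and 21 to 26. With the replicate block (the mouse pool), 7 of the 9 genes, 24 of the wider list and 6161 of all genes were called, and of the 9 genes and the wider list only the calls of *Ngfr* and *Shc3* changed. The number of all genes called was 5411 and fell to 3468 without pool 1, with a range of 3468 to 5236 when pools or libraries were left out.

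No log2 fold change of the 9 genes or of the 21 named genes of the wider list changed sign. Of 144 values for the 9 genes, 139 moved by less than the SD of the gene's 3 log2 ratios within the pools. This SD was 0.12 for *Bdnf* and 1.64 for *Ngfr*, so that far larger shifts of *Ngfr* stayed within it. The values that moved further were *Bdnf* (-2.28 without CD34hi library 1 and -1.98 without CD34lo library 1), *Ntf3* and *Ngfr* without the libraries named in the report. *Ngfr* ranged from -3.09 to -0.55, *Islr2* from 4.66 to 4.97, *Gfra1* from -3.50 to -2.82 and *Gfra2* from -3.46 to -2.76. Of 328 values for the named genes, 324 stayed on their side of the threshold, 3 calls were lost, all of *Ret*, and 1 was gained, of *Gfra4*. *Ntf5*, *Nrtn*, *Clcf1* and *Cntfr* gave no value with at least 10 counts in every library, and *Nrtn* gave values under 11 alternatives. Upper-quartile factors moved the median of all genes by -0.052. The cause of these changes was not tested. Depth limits *Ntf5*, *Nrtn*, *Shc3* and *Cntfr*, among others, with under 20 counts in every CD34hi library.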

Other observations

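The gene next to *Ngfr* in the list of neighbours with the largest difference was *Nxph3*, which encodes a neurexophilin and lies 54.3 kb away. *Nxph3* had 2.57, 0.938 and 2.03 CPM in CD34hi and 43.7, 13.9 and 33.1 CPM in CD34lo libraries, a log2 fold change of -4.02 ± 0.48 (SE; adjusted p = 0.000275 by edgeR). Unlike *Ngfr*, *Nxph3* had its lowest value of each population in pool 2. *Ano2*, 61.3 kb from *Ntf3*, was also higher in CD34lo fibroblasts (-2.81, adjusted p = 0.00737 by edgeR). *Wdr70*, 35.5 kb from *Gdnf*, had a log2 fold change of 0.00 ± 0.19 (SE; adjusted p = 0.989 by edgeR).

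*Pspn*, which encodes the GDNF family ligand persephin and was removed by the filter, had 12, 5 and 10 counts in CD34hi and 4, 0 and 3 counts in CD34lo libraries, with no overlap between the populations. *Sdc3*, which encodes a syndecan that binds GDNF, had 24.4, 27.3 and 94.8 CPM in CD34hi and 35.7, 33.3 and 43.8 CPM in CD34lo libraries. Its CD34hi library 3 lay above all others, and the log2 fold change was 0.38 ± 0.46 (SE; adjusted p = 0.567 by edgeR).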
